A study of Sus scrofa with 6 samples.

Results

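ZIC1 and ZIC4 are neighbouring genes on pig chromosome 13, and their locus was described here in a back muscle, the longissimus thoracis (LT), and a hindlimb muscle, the semitendinosus (ST). The members were ZIC1 (ENSSSCG00000011692), ZIC4 (ENSSSCG00000011693), the unannotated mRNA locus XLOC_033839, and the lncRNAs between 87.67 and 87.75 Mb. They made up 9 of the 72511 transcripts in the files, in 5 loci. The locus was chosen because its levels differed between LT and ST in these libraries, so the LT and ST values of its members are given as a description, with no test. Both muscles came from the same 3 wild-type Min pigs, a Chinese local breed, all of 1 age. LT and ST samples that share a number are taken to be of 1 pig, which the sources used here do not state. Whole muscle RNA depleted of rRNA was sequenced, so there were 6 libraries, 3 for LT and 3 for ST. Levels are in FPKM, that is, fragments per kilobase of transcript, scaled to the mapped fragments of the library.

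The ZIC genes encode zinc finger transcription factors related to the GLI factors, which carry the hedgehog signal. ZIC1 and ZIC4 are known from the dorsal neural tube and the dorsal part of the somites, from which the deep muscles of the back arise, and loss of their expression in the medaka trunk gives the back a belly-like form. In the mouse somite, ZIC1 is known to act with GLI factors on MYF5, an early gene of the muscle lineage.

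The deposited positions, on Sscrofa11.1, place ZIC1 at chr13:87745751-87749403 on the plus strand and ZIC4 at chr13:87722067-87742262 on the minus strand. The genes thus lie head to head, with 3488 bases between the outermost ZIC4 start and the ZIC1 start. The RefSeq models of this build begin closer together, with 44 bases between them. XLOC_033839 (chr13:87744589-87749475) is listed on the minus strand and covers 100% of the deposited ZIC1 span. It begins 72 bases beyond the deposited ZIC1 end and runs 1162 bases past the deposited ZIC1 start. The RefSeq model of ZIC1 is longer (chr13:87740769-87750258), and XLOC_033839 lies within it. LNC_002606 (chr13:87726880-87731751, plus strand) is an intronic lncRNA within ZIC4, and LNC_003002 (chr13:87676752-87679816, minus strand) is a lincRNA, which lies between genes.

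ZIC1 was high in all LT libraries and near 0 in ST. Its single listed transcript, ENSSSCT00000012800 (3 exons, 1556 bases), had FPKM of 6.63, 9.09 and 8.44 in LT replicates 1, 2 and 3, and 0.286, 0 and 0.0440 in ST replicates 1, 2 and 3. The lowest LT value stood far above the highest ST value. The mean was 8.06 ± 1.28 FPKM (SD, n = 3) in LT and 0.110 ± 0.154 FPKM (SD, n = 3) in ST, a difference of -5.51 on the log2(FPKM + 0.1) scale. By this difference ZIC1 stood at rank 3 of 19672 genes, counted from the most LT-biased, and the median of all genes was 0.13. Among these genes the mean level of ZIC1, per length, stood at percentile 80.5 in LT and at percentile 7.30 in ST. ST replicate 1 held 3.54% of the LT mean and ST replicate 3 held 0.546%. Since whole muscle was sequenced, fewer cells with ZIC1 RNA and less ZIC1 RNA per cell cannot be told apart.

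ZIC4 was lower than ZIC1 in each LT library and had the same direction. Its 5 transcripts summed to FPKM of 0.826, 0.840 and 0.958 in LT, against 0.0269, 0 and 0.0327 in ST, with no overlap. The LT mean was 0.875 ± 0.0726 FPKM (SD, n = 3), and the difference was -3.03 on the log2(FPKM + 0.1) scale. Relative to ZIC1, the level of ZIC4 per length was 12.5, 9.23 and 11.3% in LT replicates 1, 2 and 3. The pigs were close to each other for both genes, with a coefficient of variation in LT of 15.9% for ZIC1 and 8.30% for ZIC4. In ST the share of ZIC4 was 9.41% in replicate 1 and 74.3% in replicate 3, where both genes were below 0.05 FPKM.

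The sum of ZIC4 in LT came mainly from 1 isoform. ENSSSCT00000072970 (3 exons, 3560 bases) had FPKM of 0.658, 0.717 and 0.795 in LT, which was 79.6, 85.4 and 82.9% of the sum, and was listed at 0 in all ST libraries. ENSSSCT00000080191 had 0.0918, 0.0373 and 0.153 FPKM in LT and was likewise listed at 0 in ST. The small ST signal of ZIC4 lay on ENSSSCT00000048107, a 2-exon transcript of 6251 bases, with 0.0756, 0.0796 and 0.00999 FPKM in LT and 0.0269, 0 and 0.0327 FPKM in ST. The LT and ST values of that isoform overlapped. ENSSSCT00000052210 did not exceed 0.00560 FPKM in any library, and ENSSSCT00000012801 was listed at 0 in all 6.

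XLOC_033839 had FPKM of 0.883, 0.779 and 0.732 in LT and 0.0187, 0 and 0 in ST, a difference of -3.08 on the log2(FPKM + 0.1) scale. Every LT value was above every ST value, as for ZIC1 and ZIC4. That was the case for 8.08% of all genes tested, and nothing is read from the count of 3 mRNA loci because they were chosen on this contrast. In the fit across genes 0.574% passed an adjusted p of 0.05 and an absolute log2 difference of 1. Of single transcripts, 6.44% had every LT value above every ST value, and 0.146% passed the same thresholds, or 0.00384% with the pig number as a block.

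**Figure D1:**
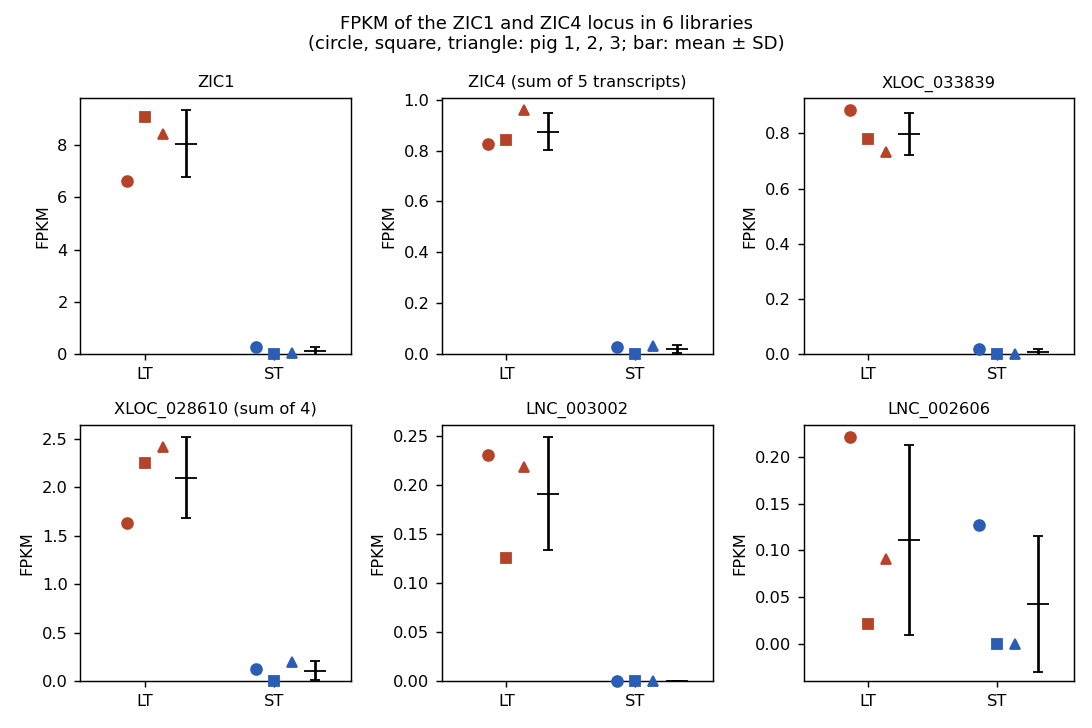
FPKM (y axes, each from its own scale) of ZIC1, ZIC4, XLOC_033839, the neighbouring unannotated mRNA locus XLOC_028610 and the lncRNAs LNC_003002 and LNC_002606 in LT and ST; circles, squares and triangles are pigs 1, 2 and 3, and the black bars are the mean ± SD of 3 libraries. ZIC1 lies between 6.63 and 9.09 in LT and at or below 0.286 in ST, and of the 6 panels LNC_002606 alone shows overlapping groups.

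Since XLOC_033839 lies on the strand opposite to ZIC1 over the whole deposited ZIC1 span, its level was set beside other loci of that kind. The library kit marks strand, but whether strand was used in the assembly and quantification is not given in the sources used here, so reads of ZIC1 and XLOC_033839 cannot be told apart with certainty. XLOC_033839 was at 13.3, 8.57 and 8.67% of ZIC1 in LT replicates 1, 2 and 3. The files hold 3041 pairs of an annotated gene and an unannotated mRNA locus covering at least 50% of its span on the other strand. For these, the annotated gene needed an LT mean of at least 1 FPKM. The unannotated locus had to exceed 0.1 FPKM in at least 1 library, so lower loci are left out. In these pairs the opposite-strand locus had a median of 7.25% of the annotated gene in LT, with quartiles of 4.32 and 11.8%. From the LT means XLOC_033839 was at 9.91% of ZIC1, above 66.2% of the pairs and within the quartiles. The part of ZIC1 reads in the level of XLOC_033839 was not tested.

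**Figure D2:**
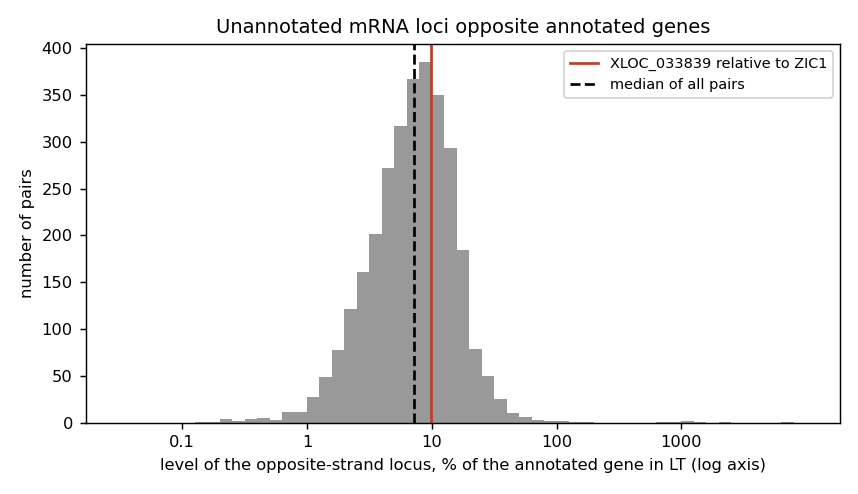
Number of pairs (y axis) by the level of an unannotated mRNA locus as a percent of the annotated gene it covers on the opposite strand, from LT means (x axis, log scale); the 5 pairs listed at 0 are not drawn. XLOC_033839 relative to ZIC1 (red line, 9.91%) lies close to the median of all pairs (dashed line, 7.25%).

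The lncRNAs of the locus were low in both muscles. LNC_003002 (2 exons, 921 bases) had FPKM of 0.230, 0.125 and 0.218 in LT and was listed at 0 in all ST libraries. All LT values were thus above all ST values, as for 6.04% of the lncRNAs above 0.1 FPKM in at least 1 library. LNC_002606 (2 exons, 403 bases) had 0.222, 0.0210 and 0.0906 FPKM in LT and 0.127, 0 and 0 FPKM in ST. Here the groups overlapped, although LT was higher in all 3 pigs. Of the 9 member transcripts, 6 exceeded 0.1 FPKM in at least 1 library.

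The same interval holds 5 further transcripts of unannotated mRNAs, in 2 loci that are not members, and these were tested with limma. The interval was chosen for its difference between LT and ST, so the p-values of these loci are not independent of that choice. XLOC_028610 (chr13:87731836-87739284) lies on the plus strand, as ZIC1 does, within the outermost ZIC4 span and 6466 bases before the deposited ZIC1 start. The RefSeq model of ZIC1 begins closer to it, at 87740769. XLOC_028610 has 4 transcripts. Their sum had FPKM of 1.63, 2.25 and 2.42 in LT, against 0.124, 0 and 0.192 in ST. It fell by 3.54 on the log2(FPKM + 0.1) scale (standard error 0.41, adjusted p = 0.0206 from limma), and was lower in ST in all 3 pigs. Without LT replicate 1, 2 or 3 or ST replicate 1 the adjusted p from limma was 0.0732, 0.112, 0.0921 or 0.0724, so the call was lost. It also exceeded 0.05 with a pseudocount of 0.01, at 0.0740 from limma. Where their listed positions overlap, reads of XLOC_028610 and ZIC4 are subject to the same doubt over strand.

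XLOC_028610 stood above ZIC4, at 197, 268 and 252% of it in LT replicates 1, 2 and 3. However, the main ZIC4 isoform in LT, ENSSSCT00000072970, ends at 87732786 and overlaps only the first part of the XLOC_028610 span. The isoforms that reach further, ENSSSCT00000012801 and ENSSSCT00000052210, did not exceed 0.00560 FPKM. This overlap is thus unlike that of XLOC_033839 with ZIC1. Relative to ZIC1, XLOC_028610 was at 24.5, 24.8 and 28.6%. Each of its 4 transcripts had every LT value above every ST value, with LT means of 0.278 to 0.677 FPKM. None of the 4 passed on its own, with adjusted p-values from 0.0909 to 0.326 in limma, so the call holds for the sum alone. Unadjusted, all 4 had p-values under 0.05. XLOC_033834 (chr13:87705263-87707392, minus strand) had 0.283, 0.293 and 0.159 FPKM in LT and was listed at 0 in ST. It thus exceeded 0.1 FPKM in LT alone. Its adjusted p from limma was 0.0580, and it was 0.0356 after blocking on the pig.

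The description was then extended to 1 Mb on each side, to see how far the LT-biased levels reached. The window held 10 genes or mRNA loci and 9 lncRNAs that are not members, of which 4 and 8 exceeded 0.1 FPKM in at least 1 library. XLOC_028610 was the 1 gene that passed the test and was higher in LT, against 0.163% of all genes in that direction. It lies inside the chosen interval. None of the 8 lncRNAs passed in limma, and 3 had an unadjusted p under 0.05, against 6.56% of all lncRNAs tested. Of these 3, LNC_002607 was higher in ST, while LNC_003000 and LNC_003001 exceeded 0.1 FPKM in LT alone.

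Between 87390671 and 87803984, a stretch of 413 kb around the locus, 7 features that are not members were listed, and for all 7 every LT value was above every ST value. The ends of the stretch were set by these features, so the count of 7 was partly fixed by that choice. Nothing is read from that count, and only 4 of the 7 exceeded 0.1 FPKM. Of these 4, XLOC_028610 and XLOC_033834 lie inside the chosen interval, while LNC_003000 and LNC_003001 exceeded 0.1 FPKM in LT alone. Of all genes tested 8.08%, and of all lncRNAs tested 6.04%, had every LT value above every ST value. These shares do not cover features at or below 0.1 FPKM. The member LNC_002606, inside the stretch, had overlapping groups. The farthest were LNC_003000, with 0.224, 0.204 and 0.111 FPKM in LT, and LNC_003001, with 0.183, 0.0752 and 0.454 FPKM in LT, both listed at 0 in ST. Their adjusted p-values from limma were 0.306 and 0.416. The nearest genes on each side of the interval, ENSSSCG00000044934 and ENSSSCG00000043038, did not exceed 0.0347 and 0.0459 FPKM.

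Outside this stretch the 12 other features of the window showed no negative difference. For 9 of them the difference between ST and LT was above 0, and 3 were listed at 0 in all libraries. LNC_002607, a lincRNA at chr13:87972752-88022936, had 0.0116, 0 and 0 FPKM in LT and 0.961, 0.0295 and 0.376 FPKM in ST (log2 difference 1.96, standard error 0.77, adjusted p = 0.50 from limma). ST replicate 2 was close to the LT libraries for this lncRNA, as it was for LNC_002608 of the same locus, with 0.00566 FPKM. PLSCR1, a phospholipid scramblase gene across the lower end of the window, had 4.94, 2.63 and 2.75 FPKM in LT and 7.14, 4.29 and 5.59 FPKM in ST (adjusted p = 0.236 from limma), with overlapping groups.

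**Figure D3:**
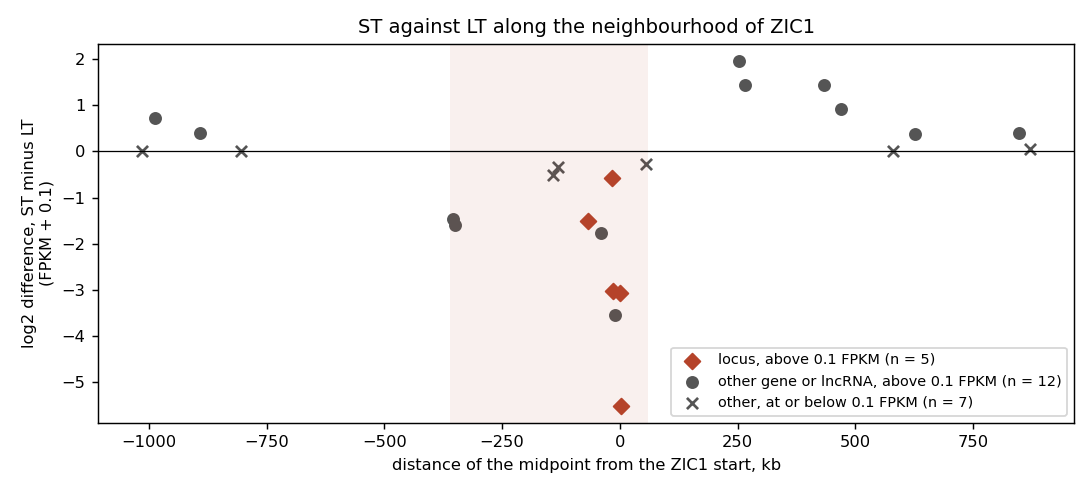
Difference of ST minus LT in log2(FPKM + 0.1) (y axis) against the distance of a feature's midpoint from the ZIC1 start in kb (x axis); red diamonds are the 5 member loci, grey circles other genes and lncRNAs above 0.1 FPKM in at least 1 library, crosses those below, and the shaded band is the stretch with LT-biased features. ZIC1 has the lowest value of the window, at -5.51, and no feature outside the band lies below 0.

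Across the whole table, 113 of 19672 genes passed in limma, of which 81 were higher in ST and 32 lower. Higher genes thus made up 71.7% of the calls, a share that was 52.5% after quantile normalization (32 higher, 29 lower) and 84.4% after rescaling to nuclear, that is, not mitochondrial, transcripts (266 higher, 49 lower). Blocking on the pig gave 799 genes, or 4.06%, and leaving out ST replicate 2 gave 991. The median difference of all genes was -0.01 after quantile normalization and 0.23 after rescaling, beside 0.13 before. Mitochondrial transcripts made up 5.36 to 8.16% of the summed FPKM in LT and 12.1 to 15.4% in ST, which set the rescaling. With FPKM weighted by transcript length, to approximate fragments, the shares were 2.91 to 4.25% in LT and 6.15 to 8.48% in ST. The difference of ZIC1 was -5.63 after quantile normalization and -5.45 after rescaling, against -5.51 before.

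**Figure D4:**
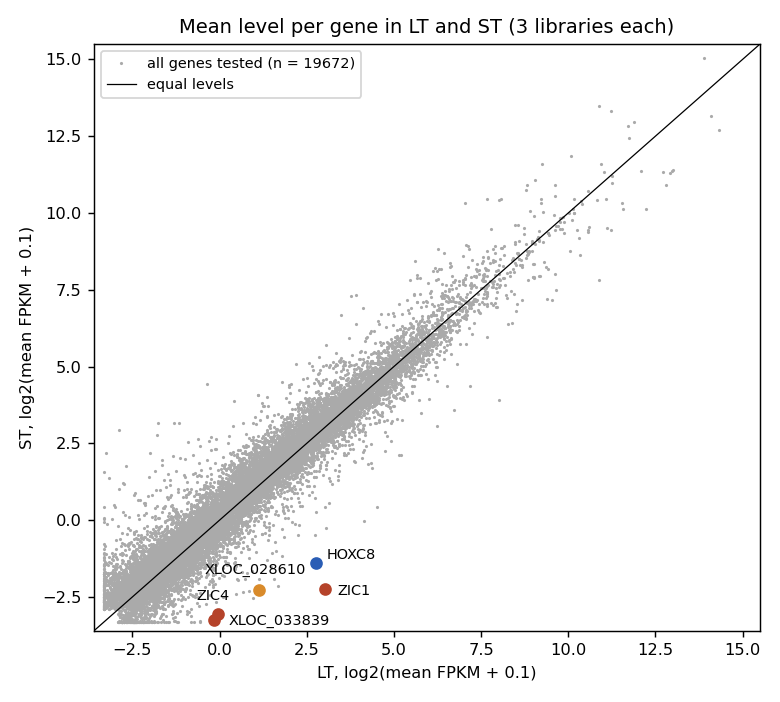
Mean level per gene in ST (y axis) against LT (x axis), both as log2(mean FPKM + 0.1) over 3 libraries; grey points are the 19672 genes tested, red points ZIC1, ZIC4 and XLOC_033839, the orange point XLOC_028610 and the blue point HOXC8. The members lie below the line of equal levels, ZIC1 with 8.06 FPKM in LT and 0.110 FPKM in ST.

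The genes with the profile most like that of ZIC1 were found by the root mean square distance between centred log2(FPKM + 0.1) profiles over the 6 libraries. Since they were picked for an LT-biased profile, no test is given for them. HOXC8, a homeobox gene of the trunk, was nearest at a distance of 0.862, with 7.47, 6.65 and 5.92 FPKM in LT and 0.350, 0.262 and 0.242 FPKM in ST. Next was MSS51, which encodes a mitochondrial protein, with a distance of 1.06 and levels of 75.9 ± 13.3 FPKM (SD, n = 3) in LT and 8.23 ± 6.35 FPKM (SD, n = 3) in ST. XLOC_028610 followed with 1.12. HOXC6 (1.33) and HOXD8 (1.40), which like HOXC8 are homeobox genes that pattern the trunk, completed the 5. HOXD8 kept 4.25 ± 1.37 FPKM (SD, n = 3) in ST, beside 37.1 ± 7.73 FPKM (SD, n = 3) in LT. ZIC4 stood at a distance of 1.35 and XLOC_033839 at 1.33, so HOXC8 was nearer to ZIC1 than both. This order depended on the pseudocount: with 0.01, tried after seeing the data, XLOC_033839 (1.23) and ZIC4 (1.41) were nearer to ZIC1 than HOXC8 (1.88).

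ZIC2 and ZIC5, another head-to-head pair of the family, had low levels. ZIC2 on chromosome 11 had 0.139, 0.0387 and 0.0352 FPKM in LT and 0.00702, 0 and 0 FPKM in ST (log2 difference -0.69, adjusted p = 0.332 from limma). The LT and ST values of ZIC2 did not overlap, LT being higher, and the gene did not pass the test. ZIC5 did not exceed 0.0328 FPKM and was not tested. ZIC genes share a conserved zinc finger region, and how reads shared between them were counted is not given in the sources used here.

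Of the 12 ZIC and GLI family genes listed, 11 had a matching symbol and 8 besides ZIC1 and ZIC4 were tested. None passed in limma, with or without the block, and 2 had an unadjusted p under 0.05, GLIS3 among them, against 18.8% of all genes. Their median difference was 0.02, against 0.13 for all genes. GLI2, a main activator of hedgehog targets, had 0.240, 0.281 and 0.305 FPKM in LT and 0.288, 0.350 and 0.351 FPKM in ST, with overlap. GLIS3 had 0.356, 0.353 and 0.280 FPKM in LT and 0.600, 0.635 and 0.668 FPKM in ST (adjusted p = 0.14 from limma). GLI3, which can repress hedgehog targets, had overlapping groups, with means of 0.249 FPKM in LT and 0.186 FPKM in ST.

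Of the 16 hedgehog pathway genes, 14 were matched and 12 tested, and none passed in limma. Unadjusted p-values under 0.05 were found for 2, KIF7 and HHIP, against 18.8% of all genes. The median difference was 0.38, against 0.13 for all genes. KIF7, a kinesin of the hedgehog signal, had 2.61 ± 0.180 FPKM (SD, n = 3) in LT and 3.77 ± 0.559 FPKM (SD, n = 3) in ST (adjusted p = 0.209 from limma). HHIP, which binds and holds back hedgehog ligands, had 0.528 ± 0.284 FPKM (SD, n = 3) in LT and 0.973 ± 0.0815 FPKM (SD, n = 3) in ST (adjusted p = 0.266 from limma). PTCH1, the hedgehog receptor and a target of the pathway, had 0.426 ± 0.172 FPKM (SD, n = 3) in LT and 0.578 ± 0.108 FPKM (SD, n = 3) in ST, with overlap. Among the ligands, SHH was listed at 0 in all libraries, while DHH had 0.220 ± 0.112 FPKM (SD, n = 3) in LT and 0.397 ± 0.0688 FPKM (SD, n = 3) in ST (adjusted p = 0.308 from limma).

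Among 20 dermomyotome and trunk patterning genes, 19 were matched and 15 tested, and none passed in limma. With the pig block 1 passed, against 4.06% of all genes. An unadjusted p under 0.05 was found for 5, against 18.8% of all genes. The median difference was 0.44, against 0.13 for all genes. MEOX1, a homeobox gene of the somite, had 2.42, 1.30 and 1.03 FPKM in LT and 6.14, 6.27 and 2.88 FPKM in ST (log2 difference 1.63, standard error 0.39, adjusted p = 0.0895 from limma), and it passed with the pig block (adjusted p = 0.0239 from limma). TCF15, a factor of the early paraxial mesoderm, had 14.4 ± 2.14 FPKM (SD, n = 3) in LT and 36.7, 21.7 and 40.7 FPKM in ST (adjusted p = 0.0815 from limma). MYF5, the gene on which ZIC1 is known to act, had 1.05, 0.346 and 0.847 FPKM in LT and 1.21, 1.81 and 0.966 FPKM in ST, with overlap (adjusted p = 0.312 from limma). PAX3, which marks the dermomyotome, did not exceed 0.0605 FPKM in any library. The other genes of the list with an unadjusted p under 0.05 were MEOX2 and WNT11, with higher means in ST, and PAX1, with a higher mean in LT.

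Of the 23 limb patterning genes, 19 were matched and 18 tested, and 1 passed in limma, against 0.412% of all genes called higher in ST. This was PRRX1, a homeobox gene of the limb bud mesenchyme, which had 8.09, 6.35 and 8.72 FPKM in LT and rose to 37.6, 19.9 and 39.9 FPKM in ST (log2 difference 2.0, standard error 0.29, adjusted p = 0.0402 from limma). Its adjusted p lay between 0.106 and 0.172 when any library other than ST replicate 2 was left out, and was 0.00304 without that one. The median difference of the list was 0.61, against 0.13 for all genes. An unadjusted p under 0.05 was found for 9 genes, against 18.8% of all genes. With the pig block 4 passed, against 4.06% of all genes. All 4 were higher in ST, with PRRX1, MSX1 and MSX2 among them. TBX4, a hindlimb factor, had 0.00937, 0 and 0 FPKM in LT and 0.156, 0.126 and 0.222 FPKM in ST (log2 difference 1.36, adjusted p = 0.0758 from limma). TBX5, a forelimb factor, had 0.00945, 0 and 0 FPKM in LT and 0.296, 0.00986 and 0.334 FPKM in ST (log2 difference 1.37, adjusted p = 0.22 from limma). HOXA11, a homeobox gene of the limb, was listed at 0 in LT and had 0.903, 0.0229 and 1.62 FPKM in ST (adjusted p = 0.168 from limma). For TBX5 and HOXA11, ST replicate 2 was close to the LT libraries. Of the 18 genes tested, 13 had a difference above 0 and 5 below. MEIS1 was among the 5, with 3.52, 5.34 and 4.82 FPKM in LT and 2.98, 2.45 and 2.22 FPKM in ST (adjusted p = 0.119 from limma).

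**Figure D5:**
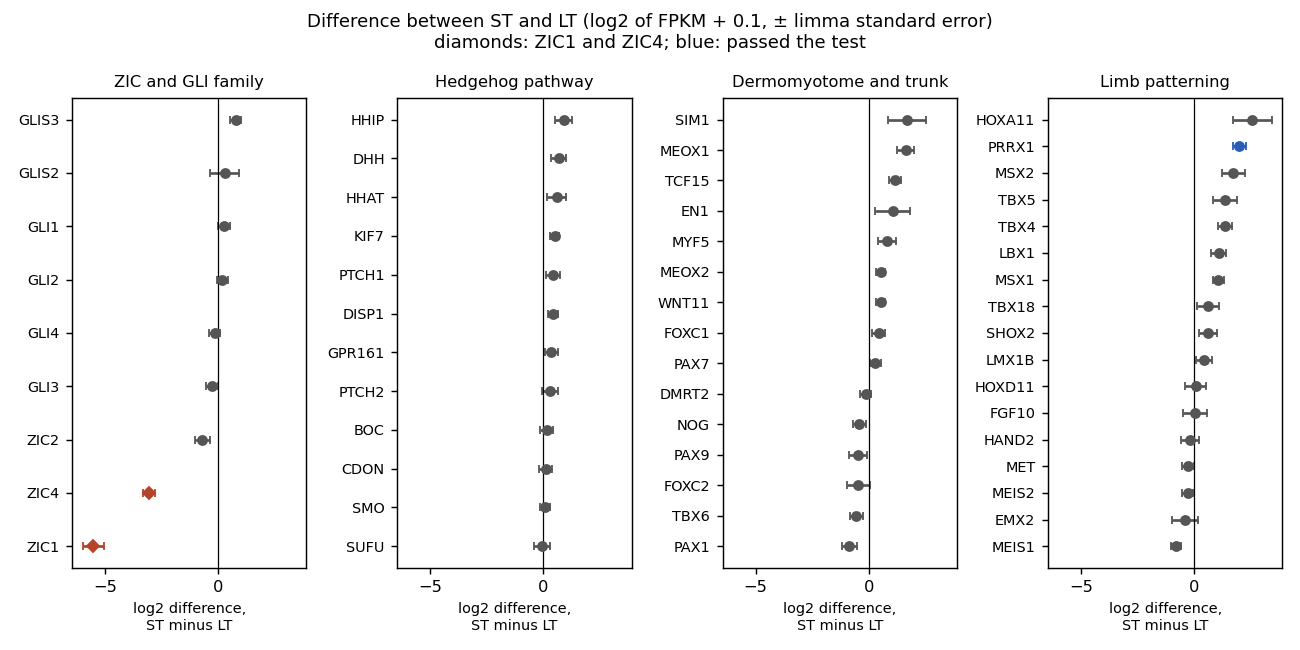
Difference of ST minus LT in log2(FPKM + 0.1) with the limma standard error (x axes) for the tested and reported genes of the ZIC and GLI family, the hedgehog pathway, the dermomyotome and trunk list and the limb list; diamonds are ZIC1 and ZIC4, shown as a description, and blue marks PRRX1, the 1 gene that passed the test. ZIC1 (-5.51) and ZIC4 (-3.03) have the lowest values shown.

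Markers of the cell types a muscle sample can hold were summed beside these values. The myofibre markers found by symbol, ACTA1, CKM, DES, TNNT1 and TNNT3, summed to between 11903 and 15252 FPKM in LT and between 11178 and 11481 FPKM in ST, and none of the 5 passed in limma. Among them TNNT1, the slow troponin T, had 348, 207 and 246 FPKM in LT and 1746, 382 and 2079 FPKM in ST (log2 difference 2.1), and it passed with the pig block (adjusted p = 0.0403 from limma). With that block 4.06% of all genes passed. TNNT3, the fast troponin T, had 8127, 7992 and 5185 FPKM in LT and 1046, 4518 and 161 FPKM in ST (log2 difference -2.93, adjusted p = 0.185 from limma). Neither troponin overlapped between the muscles, and ST replicate 2 was the ST library nearest to LT for both. Of the 4 endothelial markers, 2 passed in limma and were higher in ST, against 0.412% of all genes called higher in ST. These were PECAM1 (adjusted p = 0.0438 from limma) and CDH5 (adjusted p = 0.0408 from limma). The sum of the 4 was 47.1 to 71.0 FPKM in LT and 112.9 to 164 FPKM in ST. Both calls were lost when any library but ST replicate 2 was left out, and held in 6 of 14 alternatives, while KDR passed in addition with the pig block (adjusted p = 0.0324 from limma). Those of the smooth muscle and pericyte list summed to 102 to 114 FPKM in LT and 175 to 234 FPKM in ST, and none of the 4 passed in limma, while RGS5 did with the pig block (log2 difference 1.21, adjusted p = 0.0221 from limma). Satellite cell markers (8.57 to 13.8 FPKM in LT, 7.37 to 10.3 in ST), fibroblast markers (571 to 1177 in LT, 610 to 1111 in ST), adipocyte markers (65.2 to 180 in LT, 47.3 to 148 in ST), Schwann cell markers (7.95 to 31.0 in LT, 2.82 to 15.1 in ST), tendon markers (27.9 to 34.5 in LT, 27.3 to 88.5 in ST) and macrophage markers (16.3 to 22.1 in LT, 14.4 to 36.5 in ST) overlapped in their sums, and none of their genes passed in limma. All 5 adipocyte markers had a negative difference, with a median of -0.92, against 0.13 for all genes. All 4 tendon and all 4 macrophage markers had a positive one. Every LT value was above every ST value for LEP of the adipocyte list and CDH15 of the satellite cell list. That was the case for 8.08% of all genes tested.

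ZIC1 is also used as a marker of brown fat cells, so their markers were read as well. EBF2 and PRDM16 were tested and did not pass, and LHX8 was listed at 0 in all LT libraries, while UCP1 and CIDEA had no matching symbol. The 3 markers found summed to 3.87 to 4.44 FPKM in LT and 3.63 to 5.6 FPKM in ST. The part of each cell type in the levels of ZIC1 and ZIC4 was not tested.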

How the data were processed

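LT and ST muscles of 3 pigs were sequenced in 6 libraries. The authors filtered reads with SOAPnuke, mapped them with HISAT2 2.1.0 to Sus scrofa 11.1 and ran StringTie for assembly. The authors deposited 1 FPKM value for each transcript and library. Per the labels, samples fell into LT and ST by muscle. The number of fragments per transcript was not used here, so the depth behind single values is unknown.

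FPKM of mRNA transcripts was summed per gene ID. Sums, and transcripts in a separate fit, above 0.1 FPKM in at least 1 library were put on the log2(FPKM + 0.1) scale. LT and ST were compared in limma 3.58.1 (R 4.3.3), with a trended variance and Benjamini-Hochberg adjustment. Features passed at an adjusted p below 0.05 if the log2 difference was above 1 in size. The fit was tested on simulated data with 200 genes changed by 4 on the log2 scale. It recovered 198 of them and called 17 others. The changed genes were drawn from those with higher mean levels and no pig effect was simulated. Features with very low levels were thus not covered. Genes were matched by Ensembl ID to symbols (14657 of 20288 annotated IDs). Other values were computed in Python 3.11.15.

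The members and gene lists were chosen with earlier results of these data known. Named genes were the members, the ZIC genes, genes of each list that passed or had the smallest p, the nearest neighbours and those that passed, and the 5 genes most like ZIC1 with a sum above 1 FPKM; PTCH1, GLI2, MYF5, PAX3, SHH, XLOC_033834, the lncRNAs outside the interval and some limb and marker genes were added after their values were seen. Some genes counted in the lists are not reported here by name. Both muscles were sampled from 3 pigs per the study's Methods, which do not tie sample numbers to pigs. The numbers were taken as pigs because deviations of same-numbered LT and ST samples from the group means correlated at 0.290, 0.261 and 0.292 over genes. Alternatives were other pseudocounts and filters, the pig block, rescaling to nuclear transcripts, quantile normalization, no variance trend and leaving out each library.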

Additional observations from a re-analysis of the deposited data

How the results depend on the processing

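For ZIC1, ZIC4, XLOC_033839 and LNC_003002 every LT value was above every ST value. Other pseudocounts, the pig block or leaving out a library thus could not change the direction, and nothing is read from it. These members were lower in ST under all alternatives run. With a pseudocount of 0.01 their differences on the log2 scale were -7.20, -5.14, -5.83 and -4.28, and with a pseudocount of 1 they were -3.03, -0.88, -0.84 and -0.25, because ST values are near 0. Leaving out each library in turn gave -6.07 to -5.10 for ZIC1, -3.11 to -2.91 for ZIC4, -3.16 to -3.01 for XLOC_033839 and -1.70 to -1.42 for LNC_003002. The block on pigs left these differences as they were, at -5.51 for ZIC1.

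The number of genes called (113) was 6 without a filter, 799 with the pig block, 315 after rescaling to nuclear transcripts, 61 after quantile normalization and 29 with an untrended variance. When each library was left out it was 12 to 991, the highest without ST replicate 2 and at most 22 without any other. For transcripts (76) the number was 37 with a pseudocount of 1, 26 without a filter, 40 with a filter at 1 FPKM and 2 with the pig block, and 46 to 256 when each library was left out. The neighbouring genes called (1) numbered 0 with a pseudocount of 0.01 or no filter, 2 with the pig block or after rescaling, and 0 to 2 when each library was left out. Trunk genes (0) numbered 1 with the pig block and 0 to 2 when each library was left out. Limb genes (1) numbered 0 without a filter or with an untrended variance, 4 with the pig block and 0 to 5 when each library was left out. The ZIC and GLI and hedgehog lists had 0 calls under all 14 alternatives. The causes were not tested. Values near 0 FPKM rest on few fragments, whose number is unknown.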
